A study of Mus musculus with 16 samples.

Results

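The insulin-like growth factor (IGF) system was followed in the dentate gyrus, the region of the hippocampus that holds the granule neurons and a pool of neural stem cells. The 10 genes were taken by name from the abundance tables, which list 24421 gene names, and each had a single entry in every table. They encode the ligands Igf1 and Igf2, the receptors Igf1r, Igf2r and Insr, and the binding proteins Igfbp2, Igfbp3, Igfbp4, Igfbp5 and Igfbp7. All mice were males of the C57BL/6 strain, aged 1 year. They were either p16Ink4a +/+ (p16 WT) or p16Ink4a -/- (p16 KO), and either sedentary (CTL) or given a running wheel to use at will for 12 days (RUN). The null allele of p16Ink4a, which was made in FVB mice and then crossed into C57BL/6, is carried by every cell of p16 KO mice, not by a chosen cell type, and leaves p19Arf functional. There were 4 libraries per group, with replicates 1 to 4 from p16 WT CTL, 5 to 8 from p16 KO CTL, 9 to 12 from p16 WT RUN and 13 to 16 from p16 KO RUN. Each library was made from the dentate gyri of 2 mice, so variation from mouse to mouse was seen only as the mean of each pair.

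Levels are given in TPM, a share of all transcripts that takes gene length into account, so that genes can be ranked against each other. Differences are log2 fold changes of scaled TPM with 0.1 TPM added, fitted with limma over 17317 genes, with errors given as SE. The threshold is that of the study, an unadjusted p under 0.05, and a difference is called past it or short of it. Benjamini-Hochberg adjusted p-values of limma stand beside it. Set A compares p16 KO RUN with p16 KO CTL and Set C compares p16 WT RUN with p16 WT CTL, so both ask what running changed. Set B compares the genotypes in sedentary mice (KO relative to WT) and Set E in running mice. Set D compares p16 KO RUN with p16 WT CTL. Sets share groups, so they are not independent of each other.

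Granule neuron markers (Prox1 and 7 others) summed to between 536 and 1478 TPM in every library. Median coverage relative to the mean library was 0.900 to 1.95 in p16 WT CTL and 0.914 to 1.68 in p16 KO CTL. It was 0.621 to 0.877 in p16 WT RUN and 0.796 to 0.893 in p16 KO RUN, so the running libraries were the less deeply covered ones. Within groups, the log2 levels of library pairs had a Pearson r of 0.972 to 0.985 over genes, which are not independent of each other. Cdkn2a, the locus of p16Ink4a, was between 0 and 0.586 TPM in every group, and this entry also covers p19Arf, so it does not check the genotype. A set of 4 sedentary libraries stood apart. Replicate 2 of p16 WT CTL and replicates 6 and 7 of p16 KO CTL held 1151, 703 and 637 TPM of nuclear and long noncoding RNA (Malat1, Meg3 and 7 others), against 2007 to 2710 TPM in the other 13 libraries. Their endothelial markers were also the lowest (70.8 to 96.9 against 119 to 174 TPM) and their astrocyte markers the highest (2773 to 3277 against 2170 to 2771 TPM). Replicate 8 of p16 KO CTL held 246 TPM of CA1 pyramidal markers, against 72.2 to 144 TPM elsewhere, and the least granule neuron marker RNA. Replicate 7 also held 219 TPM of choroid plexus markers, against 19.2 to 66.1 TPM elsewhere. Main results are given with values without the 3 libraries low in nuclear RNA or, for some genes, without all 4 that stood apart. Without all 4, p16 KO CTL is replicate 5 alone, so calls of such fits take their spread from the other libraries. Leaving out these libraries was a choice made after seeing the data.

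IGF-I and IGF-II are secreted peptides related to insulin. They act through the tyrosine kinase receptor encoded by Igf1r and, for IGF-II and insulin, through that encoded by Insr, whereas the product of Igf2r takes up IGF-II and lysosomal enzymes and carries them to lysosomes. The binding proteins hold the ligands outside cells, extending their life and limiting or aiding their access to receptors, and secreted proteases such as pappalysin release the ligands by cutting them. In the brain IGF-I is known as a growth and survival factor for neurons and glia, and as one of the signals of exercise that reach the hippocampus.

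Among the 10 genes, Igfbp5 was by far the most abundant transcript, at 150.2 ± 49.3 TPM (mean ± SD, n = 16), and ranked first in each of the 16 libraries. Igfbp4 (41.2 ± 10.6 TPM) and Igfbp2 (40.5 ± 9.80 TPM) followed, and were not separated, since Igfbp4 was the higher of the pair in 10 of 16 libraries. The receptors came next, with Igf1r at 25.8 ± 3.13 TPM, Igf2r at 23.9 ± 3.52 TPM and Insr at 21.6 ± 3.09 TPM. Igf1r exceeded Igf2r in 13 of 16 libraries and Igf2r exceeded Insr in 15. Igfbp3 (17.8 ± 4.30 TPM), Igfbp7 (14.4 ± 3.93 TPM) and Igf2 (10.8 ± 4.28 TPM) overlapped in range. Igf1 was the least abundant, at 2.69 ± 0.256 TPM, and ranked last in all 16 libraries. Relative to their means, Igf1 and the receptors varied least between libraries, and Igf2 and Igfbp5 most. Of the genes outside the 10, the insulin gene Ins1 was listed at 0 in all 16 libraries, Ins2 in 13, and Igfbp1 was at most 0.596 TPM.

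**Figure D1:**
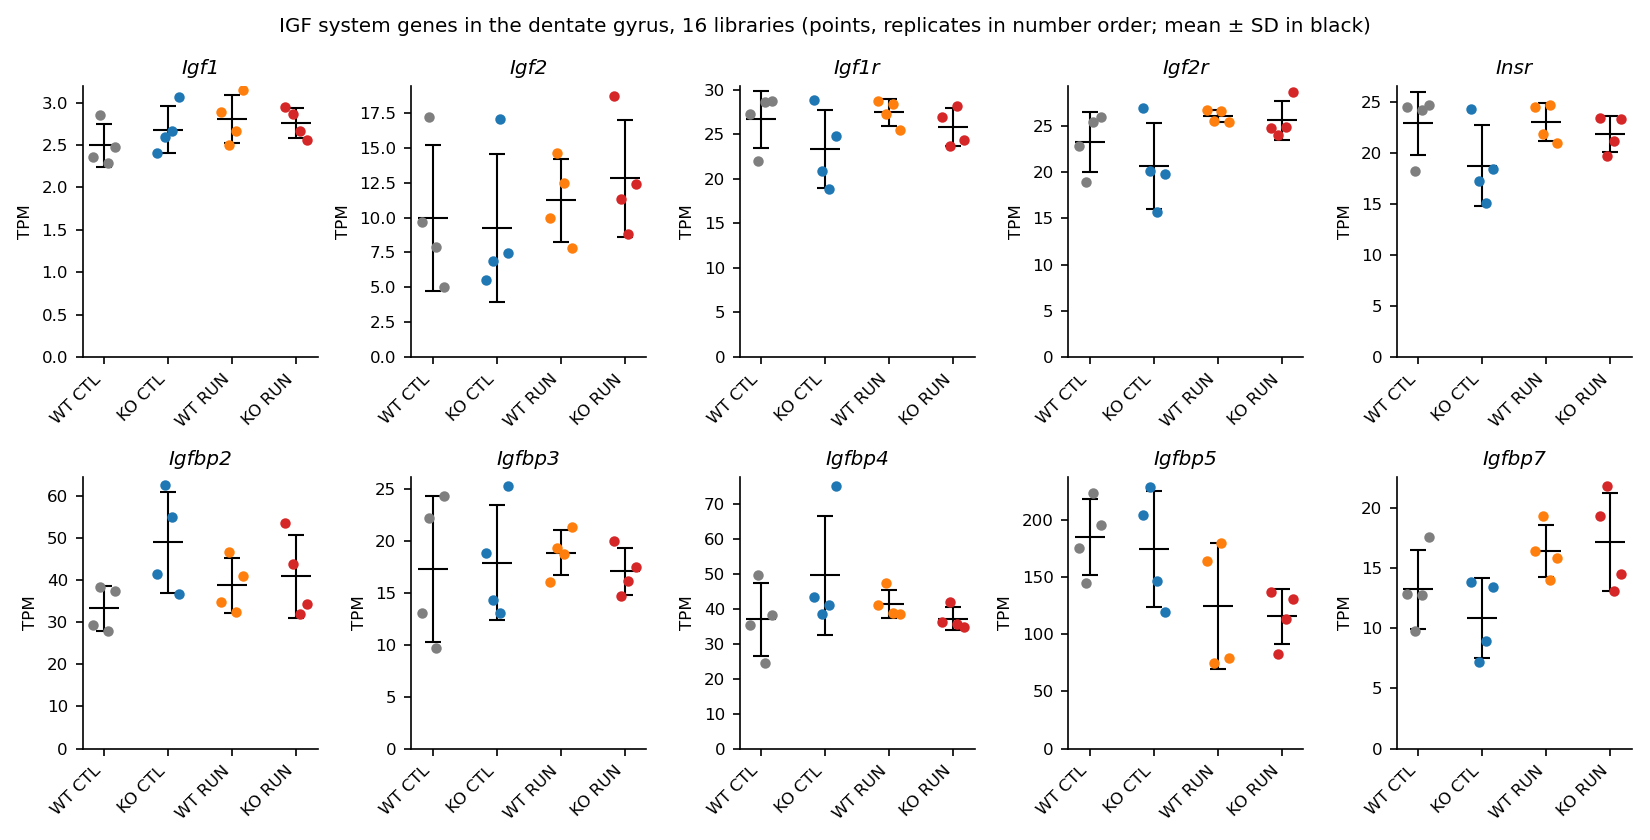
Level of each of the 10 genes in TPM (vertical axes, from 0) in the 4 groups (horizontal axes), with 1 point per library in the order of its replicate number and the mean ± SD of 4 libraries in black. Igfbp5 spans 74.8 to 229 TPM and is lowest in running mice, while the 3 receptors have their lowest values in sedentary libraries.

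Igf1, on the plus strand at chr10:87859056-87937047 (mm10), hardly varied. It was measured at 2.36, 2.86, 2.29 and 2.47 TPM in p16 WT CTL, 2.40, 2.59, 2.67 and 3.07 TPM in p16 KO CTL, 2.89, 2.51, 2.67 and 3.15 TPM in p16 WT RUN, and 2.95, 2.87, 2.67 and 2.56 TPM in p16 KO RUN. All 16 libraries lay between 2.29 and 3.15 TPM and the groups overlapped. Neither the running nor the genotype comparisons passed the threshold for Igf1. This is the local transcript of the tissue, since IGF-I made by the liver and carried in blood leaves no RNA here.

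Igf2, at chr7:142650768-142661035 on the minus strand, is an imprinted gene that in the adult brain is transcribed mainly in the choroid plexus and the meninges. It was measured at 9.65, 17.2, 7.91 and 5.02 TPM in p16 WT CTL, 5.49, 6.89, 17.1 and 7.48 TPM in p16 KO CTL, 9.97, 14.6, 12.5 and 7.85 TPM in p16 WT RUN, and 18.7, 11.3, 8.84 and 12.4 TPM in p16 KO RUN. The groups overlapped, and in p16 KO CTL 3 libraries lay under 8 TPM and replicate 7 at 17.1 TPM. Replicate 7 is the library with 219 TPM of choroid plexus markers, of which Ttr, the carrier of thyroid hormone made by that epithelium, gave 191 TPM. Replicate 13, with the most Igf2 of the 16 at 18.7 TPM, also had the highest sum of meningeal and fibroblast markers, 77.7 TPM. Replicate 5, with the next highest sum at 67.7 TPM, held 5.49 TPM of Igf2, and replicate 4, with the least Igf2 at 5.02 TPM, had a sum of 62.2 TPM. Members of this list differed between these libraries. Dcn was at 16.2, 20.2 and 19.1 TPM and Ogn at 25.7, 22.3 and 15.9 TPM in replicates 4, 5 and 13. Slc6a13 was at 1.77, 3.14 and 7.04 TPM in the same replicates. Of 10 such markers, 3 were higher and 2 lower in running mice on average at an unadjusted p under 0.05. The share over all genes in either direction was 17.9%. The summed markers ran from 42.6 to 65.8 TPM in p16 WT CTL, 51.5 to 67.7 TPM in p16 KO CTL, 43.2 to 65.3 TPM in p16 WT RUN and 38.2 to 77.7 TPM in p16 KO RUN, and the part of these markers in the Igf2 values was not tested. The log2 fold change was 0.49 ± 0.36 (SE) in Set A (adjusted p = 0.465, short of the threshold), and 0.26 ± 0.36 in Set C (adjusted p = 0.986, short of the threshold). With the summed choroid plexus markers as a covariate the Set A value was 0.85 (past the threshold), and without the 3 libraries low in nuclear RNA, replicate 7 among them, it was 0.91 (past the threshold). The mean running effect over both genotypes was 0.38 ± 0.28 (adjusted p = 0.485, short of the threshold), and 0.61 with the covariate (past the threshold). Without the 3 libraries it was 0.75 (past the threshold), and without replicate 8 as well it was 0.88, where Set A was 1.16. In that last fit replicate 5 (5.49 TPM) is the only p16 KO CTL library, so only the sizes are given. The average also passed the threshold without replicate 2 of p16 WT CTL or replicate 7 alone, with values from 0.23 to 0.56 over the 16 fits. Set A passed it without replicate 7, with values from 0.27 to 0.86 over its 8 fits. The antisense transcript Igf2os, which overlaps Igf2 by 1343 bases, was at most 0.141 TPM, and without strand information the reads of such a pair cannot be told apart.

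The 3 receptors, which carry the signal or, in the case of Igf2r, clear IGF-II, moved together across libraries (Pearson r of log2 levels over the 16 libraries 0.86 for Insr with Igf1r, 0.82 for Insr with Igf2r and 0.71 for Igf2r with Igf1r, a description of libraries that differ in depth and RNA quality). Igf1r, at chr7:67952257-68233667 on the plus strand, was measured at 27.2, 22.0, 28.6 and 28.7 TPM in p16 WT CTL, 28.8, 20.9, 18.9 and 24.7 TPM in p16 KO CTL, 28.7, 27.3, 28.3 and 25.4 TPM in p16 WT RUN, and 26.9, 23.6, 28.2 and 24.4 TPM in p16 KO RUN. Igf2r, at chr17:12682406-12769706 on the minus strand, was measured at 22.8, 18.9, 25.4 and 26.0 TPM in p16 WT CTL, 27.0, 20.1, 15.7 and 19.8 TPM in p16 KO CTL, 26.7, 25.5, 26.7 and 25.5 TPM in p16 WT RUN, and 24.8, 24.0, 24.9 and 28.7 TPM in p16 KO RUN. Insr, at chr8:3150922-3279617 on the minus strand, was measured at 24.5, 18.3, 24.2 and 24.7 TPM in p16 WT CTL, 24.3, 17.2, 15.1 and 18.4 TPM in p16 KO CTL, 24.5, 21.9, 24.7 and 20.9 TPM in p16 WT RUN, and 23.4, 19.7, 21.2 and 23.3 TPM in p16 KO RUN. For Igf1r and Insr the 3 lowest libraries of the 16 were replicates 2, 6 and 7, those low in nuclear RNA, and for Igf2r they were replicates 7, 2 and 8. Igf1r was at 18.9 to 22.0 TPM in replicates 2, 6 and 7 against 23.6 to 28.8 TPM in the other 13, and Insr at 15.1 to 18.3 TPM against 18.4 to 24.7 TPM. Igf2r was at 15.7 to 20.1 TPM against 19.8 to 28.7 TPM.

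Averaged over both genotypes, Igf2r was 1.16-fold higher in running than in sedentary mice, with a log2 fold change of 0.21 ± 0.0776 (adjusted p = 0.181, past the threshold). All 8 running libraries had at least 24.0 TPM of it, and 5 of the 8 sedentary ones had less. The value kept the threshold in 16 of 16 fits that left out 1 library (0.16 to 0.27), and without replicate 5 of p16 KO CTL its adjusted p was under 0.05. The corresponding values were 0.06 ± 0.0686 for Igf1r (adjusted p = 0.638, short of the threshold) and 0.09 ± 0.0761 for Insr (adjusted p = 0.558, short of the threshold). Without replicates 2, 6 and 7 the Igf2r value was 0.11 (short of the threshold) and the Igf1r and Insr values were -0.05 and -0.03. Without replicate 8 as well, the Igf2r value was 0.01 (short of the threshold). Igf2r lies partly under Airn, a noncoding transcript of the opposite strand that overlaps it by 28396 bases and was at 1.34 to 4.31 TPM. Whether reads were assigned by strand is not given in the sources used here, so reads of Igf2r and Airn may be shared where they overlap.

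**Figure D2:**
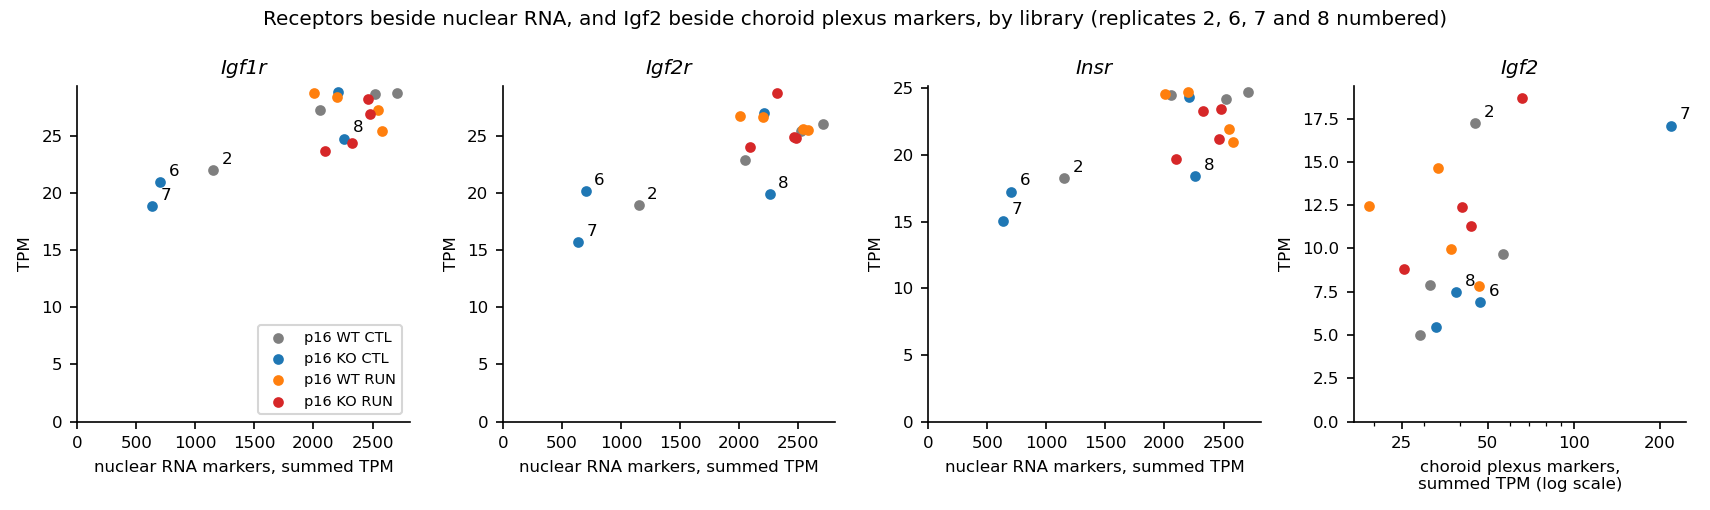
Receptor levels (TPM, vertical axes from 0) against the summed TPM of 9 nuclear and long noncoding RNAs, and Igf2 against the summed TPM of 10 choroid plexus markers (log axis), with 1 point per library coloured by group and replicates 2, 6, 7 and 8 numbered. The 3 libraries lowest in nuclear RNA hold the 3 lowest Igf1r and Insr values, and the library with the most choroid plexus RNA holds 17.1 TPM of Igf2.

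Because the receptors moved together, the 250 bases upstream of their RefSeq start sites are shown for Igf1r (chr7:67952007-67952256, plus strand) and Igf2r (chr17:12769707-12769956, minus strand), both in GRCm38.p6, the assembly of mm10. The RefSeq sequences are written 5′ to 3′, ending at the base before the start, and Insr had no entry. Capitals mark matches, on either strand, to GGGCGG (GC box) or CACGTG (E-box).
Igf1r: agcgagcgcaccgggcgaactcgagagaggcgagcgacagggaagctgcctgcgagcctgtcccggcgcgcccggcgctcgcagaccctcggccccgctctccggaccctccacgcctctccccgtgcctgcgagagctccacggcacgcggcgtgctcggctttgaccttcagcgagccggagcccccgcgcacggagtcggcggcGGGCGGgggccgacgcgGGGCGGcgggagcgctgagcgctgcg
Igf2r: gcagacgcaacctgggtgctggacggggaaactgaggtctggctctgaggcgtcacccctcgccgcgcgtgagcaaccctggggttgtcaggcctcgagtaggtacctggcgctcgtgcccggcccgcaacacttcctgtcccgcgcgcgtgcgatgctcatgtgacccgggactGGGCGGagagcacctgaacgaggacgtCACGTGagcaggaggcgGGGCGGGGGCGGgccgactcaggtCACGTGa
Igf1r has 2 GC boxes and Igf2r 3, a motif present in 32.7% of 32851 such mouse windows, and Igf2r has 2 E-boxes, a motif present in 6.02%. These are letter matches and were not tested as binding sites. The guanine and cytosine content was 77.6% for Igf1r and 69.2% for Igf2r, against a median of 52.4%.

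Igfbp5, the dominant binding protein, passed the threshold downward in Sets A, C and D and in the running average. It was measured at 176, 145, 224 and 196 TPM in p16 WT CTL, 205, 229, 147 and 119 TPM in p16 KO CTL, 164, 74.8, 179.6 and 79.5 TPM in p16 WT RUN, and 137, 83.1, 113 and 131 TPM in p16 KO RUN. The groups had means of 185 ± 33.0 TPM in p16 WT CTL, 175 ± 50.8 TPM in p16 KO CTL, 125 ± 55.2 TPM in p16 WT RUN and 116 ± 24.1 TPM in p16 KO RUN (SD, n = 4). All 4 p16 KO RUN libraries lay below all 4 p16 WT CTL libraries, whereas the other pairs of groups overlapped. In p16 WT RUN the libraries were split, with replicates 10 and 12 at 74.8 and 79.5 TPM and replicates 9 and 11 within the range of sedentary mice.

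In Set A Igfbp5 was 0.643 times its sedentary level, a log2 fold change of -0.64 ± 0.22 (limma p = 0.0162, adjusted p = 0.215, exact two-sided permutation p = 0.0857). In Set C the log2 fold change was -0.68 ± 0.28 (limma p = 0.0364, adjusted p = 0.985, exact two-sided permutation p = 0.114). In Set D it was -0.69 ± 0.16 (limma p = 0.00174, adjusted p = 0.246, exact two-sided permutation p = 0.0286, the smallest that 4 against 4 allows). Averaged over genotypes, running went with 0.634 times the level, a log2 fold change of -0.66 ± 0.19 (adjusted p = 0.110, past the threshold). The running effects in the 2 genotypes differed by 0.04 ± 0.38 (95% interval -0.77 to 0.86, adjusted p = 0.982, short of the threshold), a wide interval.

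Leaving out each library in turn kept the averaged value between -0.76 and -0.56, past the threshold in 16 of 16 fits, and Set A between -0.81 and -0.48 in 8 of 8. Set C did not keep the threshold without replicate 1, 3 or 4 of p16 WT CTL or replicate 10 or 12 of p16 WT RUN, where its values ran from -0.88 to -0.48 over all 8 fits. Without the 3 libraries low in nuclear RNA the averaged value was -0.62 (past the threshold) and that of Set A -0.48 (short of the threshold). Over all alternatives the Set A call was lost in 2 of 15, with values from -0.84 to -0.48. That of the average was kept in 14 of 14, with values from -0.80 to -0.58. The summed granule neuron markers were 694 to 1478 TPM in p16 WT CTL and 536 to 1131 TPM in p16 KO CTL. They were 848 to 1289 TPM in p16 WT RUN and 943 to 1427 TPM in p16 KO RUN. The library with the lowest sum in each running group, replicates 10 and 14, also had the lowest Igfbp5 of its group, as did replicates 2 and 8 in the sedentary groups. On average over both genotypes 1 of 8 granule neuron markers was higher in running mice and none lower at an unadjusted p under 0.05, where 17.9% of all genes passed in either direction. Of 8 astrocyte and 8 microglia markers, 4 each were lower in running mice on average and none higher. In Set A 4 astrocyte and 2 microglia markers were lower, where 18.5% of all genes passed, and in Set C none of either list passed. Replicates 6 and 7 of p16 KO CTL, both low in nuclear RNA, had the highest sums of both lists (3277 and 3210 TPM for astrocytes, 602 and 561 TPM for microglia). The part of cell composition in the Igfbp5 difference was not tested, and in pieces of tissue fewer cells of a type and less RNA per cell cannot be told apart.

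Igfbp5 lies at chr1:72858065-72874865 on the minus strand, and its end faces that of Igfbp2 (chr1:72824480-72852471, plus strand), with 5593 bases between them. Igfbp2 passed the threshold in none of the comparisons of running with sedentary mice. The upstream windows of the 3 binding protein genes that passed the threshold in an average over genotype or running, Igfbp5 (chr1:72874866-72875115, minus strand), Igfbp7 (chr5:77408046-77408295, minus strand) and Igfbp2 (chr1:72824230-72824479, plus strand), are given with the same marks.
Igfbp5: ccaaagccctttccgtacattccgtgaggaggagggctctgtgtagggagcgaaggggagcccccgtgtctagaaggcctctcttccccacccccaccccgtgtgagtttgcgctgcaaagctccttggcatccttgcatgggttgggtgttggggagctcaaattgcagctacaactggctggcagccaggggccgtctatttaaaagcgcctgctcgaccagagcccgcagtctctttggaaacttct
Igfbp7: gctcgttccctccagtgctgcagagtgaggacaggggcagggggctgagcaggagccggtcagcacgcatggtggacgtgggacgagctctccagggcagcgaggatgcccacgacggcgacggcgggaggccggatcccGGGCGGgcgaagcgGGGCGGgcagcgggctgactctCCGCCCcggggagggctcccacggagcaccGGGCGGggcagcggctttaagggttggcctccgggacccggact
Igfbp2: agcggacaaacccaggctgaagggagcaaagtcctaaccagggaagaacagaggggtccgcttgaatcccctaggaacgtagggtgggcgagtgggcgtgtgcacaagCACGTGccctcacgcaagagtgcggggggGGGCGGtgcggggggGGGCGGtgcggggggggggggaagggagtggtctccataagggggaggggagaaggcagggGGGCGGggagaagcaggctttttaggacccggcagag
Igfbp7 has 4 GC boxes and Igfbp2 has 3 with 1 E-box, whereas the Igfbp5 window holds none of these letters, nor those of 5 other motifs searched on both strands. These were the TATA box (TATAAA, held by 12.4% of all windows), the CCAAT box (33.8%), the cAMP response element (TGACGTCA, 1.55%), a forkhead site (TGTTTAC, 3.17%) and the D-box of clock output factors (TTATGTAA, 0.819%). Guanine and cytosine content was 58.8% for Igfbp5, 74.0% for Igfbp7 and 67.2% for Igfbp2.

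Igfbp7 binds IGFs weakly and insulin, and is known as a matrix protein of vessel walls. It lies at chr5:77349240-77408045, and was measured at 12.8, 9.75, 12.8 and 17.6 TPM in p16 WT CTL, 13.9, 7.24, 8.91 and 13.4 TPM in p16 KO CTL, 16.5, 19.3, 14.1 and 15.8 TPM in p16 WT RUN, and 19.3, 21.8, 13.1 and 14.6 TPM in p16 KO RUN. The highest value of p16 KO CTL, 13.9 TPM, was below 3 of the 4 p16 KO RUN values, and the lowest values of all were in replicates 6, 7 and 2. In Set A the log2 fold change was 0.61 ± 0.23 (limma p = 0.0249, adjusted p = 0.233, exact two-sided permutation p = 0.114), and in Set C 0.32 ± 0.16 (limma p = 0.0808). The average over genotypes was 1.38-fold, or 0.47 ± 0.15 on the log2 scale (adjusted p = 0.141, past the threshold), also in 16 of 16 fits that left out 1 library. Set A did not keep the threshold without replicate 6, 7, 13 or 14, with values from 0.45 to 0.73, and Set C passed it without replicate 4 or 11, with values from 0.21 to 0.45. Without the 3 libraries low in nuclear RNA the average was 0.24 (short of the threshold) and Set A 0.28 (short of the threshold). Over all alternatives the call was lost in 3 of 14 for the average and in 3 of 15 for Set A. Of 8 endothelial markers (Cldn5, Pecam1, Flt1, Cdh5, Tek, Kdr, Esam and Ly6c1) 4 were higher in running mice on average over genotypes, and none lower, at an unadjusted p under 0.05, where 17.9% of all genes passed in either direction. In Set A 2 of these 8 markers were higher and in Set C none passed, where 18.5% and 4.81% of all genes passed. The lowest sums of the 8 were in replicates 6, 7 and 2, those low in nuclear RNA. The sum of the 8 markers was 96.9 to 137 TPM in p16 WT CTL and 70.8 to 138 TPM in p16 KO CTL. It was 125 to 145 TPM in p16 WT RUN and 119 to 174 TPM in p16 KO RUN, with no marker at 0 in any library. Their part in the Igfbp7 difference was not tested.

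Igfbp2, the binding protein known in the brain mainly from astrocytes and the choroid plexus, was the gene of the 10 past the threshold in the comparison of genotypes in sedentary mice. It was measured at 29.4, 38.4, 27.9 and 37.5 TPM in p16 WT CTL, 41.5, 62.6, 55.1 and 36.7 TPM in p16 KO CTL, 34.7, 46.8, 32.5 and 40.9 TPM in p16 WT RUN, and 53.6, 43.9, 32.0 and 34.2 TPM in p16 KO RUN. In p16 KO CTL 3 of the 4 libraries were above all p16 WT CTL libraries, and replicate 8, at 36.7 TPM, was not. In Set B the level was 1.51-fold higher in p16 KO CTL, a log2 fold change of 0.60 ± 0.20 (limma p = 0.0156, adjusted p = 0.625, exact two-sided permutation p = 0.0571), and past the threshold in 8 of 8 fits that left out 1 library. Averaged over sedentary and running mice, the genotype difference was 0.34 ± 0.14 (adjusted p = 0.674, past the threshold). That average did not keep the threshold without replicate 1, 3, 6, 7, 9, 11, 13 or 14, with values from 0.27 to 0.40. The running effects of the 2 genotypes differed by -0.53 ± 0.29 (adjusted p = 0.797, short of the threshold), and by -0.66 without replicate 8 (past the threshold). It also passed without replicate 13, with values from -0.66 to -0.39 over the 16 fits. The highest values, 62.6 and 55.1 TPM, were in replicates 6 and 7, which also had the highest summed astrocyte markers (3277 and 3210.1 TPM). Replicate 13, next in Igfbp2 at 53.6 TPM, had a sum of 2252 TPM, and replicate 2, next in astrocyte markers at 2773 TPM, held 38.4 TPM of Igfbp2. The summed astrocyte markers were 2171 to 2773 TPM in p16 WT CTL and 2170.4 to 3277 TPM in p16 KO CTL. Of the 8 markers, 3 were higher and none lower in Set B at an unadjusted p under 0.05, where 6.69% of all genes passed, and their part in the Igfbp2 difference was not tested. Without the 3 libraries low in nuclear RNA the Set B value was 0.36 (past the threshold), with the nuclear RNA markers as a covariate it was 0.35 (past the threshold), and with the choroid plexus markers 0.49 (past the threshold). The genotype average was 0.21 without those 3 libraries (short of the threshold). Without all 4 libraries that stood apart, the Set B value, from 3 libraries against 1, was 0.41 (short of the threshold), where the lone p16 KO CTL library is assumed to vary like the others.

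Igfbp4, a binding protein that mostly restrains IGF action until it is cut, was measured at 35.4, 49.6, 24.3 and 38.2 TPM in p16 WT CTL, 43.4, 38.6, 40.9 and 74.9 TPM in p16 KO CTL, 41.0, 47.2, 38.8 and 38.5 TPM in p16 WT RUN, and 36.1, 41.9, 35.7 and 34.8 TPM in p16 KO RUN. It lies at chr11:99041260-99052643 on the plus strand. Replicate 8 of p16 KO CTL, the library rich in CA1 markers, held 74.9 TPM, far above the 38.6 to 43.4 TPM of the other 3. In Set A the log2 fold change was -0.43 ± 0.19 (limma p = 0.0488, adjusted p = 0.270, exact two-sided permutation p = 0.0571), just past the threshold. The call was lost without replicate 7, 13, 15 or 16, with values from -0.52 to -0.22. It was also lost in 8 of 15 alternatives, which include the fit without replicate 8: with the 16 libraries fitted together, without the variance trend, with no filter, with 0.01 TPM added, on FPKM, on the deposited TPM, with the choroid plexus covariate, and without the 4 libraries that stood apart. Over these 15 the values ran from -0.65 to -0.22. The smallest of the values with 1 library left out, -0.22, was found without replicate 8 (past the threshold). In Set B the value was 0.47 ± 0.26 (adjusted p = 0.625, short of the threshold) and in Set C 0.19 ± 0.20 (adjusted p = 0.986, short of the threshold). Both passed the threshold without replicate 2 of p16 WT CTL, with values from 0.26 to 0.65 and from -0.0033 to 0.37 over their fits. The Set B value was 0.87 without the 3 libraries low in nuclear RNA (past the threshold), and it also passed when the 16 libraries shared one fit, while without all 4 it was 0.45 (short of the threshold). The running effects of the 2 genotypes had opposite signs and differed by -0.62 ± 0.30 (adjusted p = 0.797, short of the threshold). This difference was -1.02 without the 3 libraries low in nuclear RNA (past the threshold) and -0.41 without replicate 8 (short of the threshold). Without all 4 it was -0.59, with replicate 5 (43.4 TPM) as the only p16 KO CTL library, so only its size is given. The difference also passed without replicate 2, 5, 6 or 14 alone, with values from -0.80 to -0.41.

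Igfbp3, the main carrier of IGFs in blood, lies at chr11:7206091-7213923 on the minus strand and passed no threshold. It was measured at 13.0, 22.1, 9.67 and 24.3 TPM in p16 WT CTL, 18.8, 14.3, 13.1 and 25.3 TPM in p16 KO CTL, 16.0, 19.3, 18.7 and 21.3 TPM in p16 WT RUN, and 20.0, 14.6, 16.1 and 17.5 TPM in p16 KO RUN. The spread within sedentary groups, 9.67 to 25.3 TPM, was wider than that within running groups, 14.6 to 21.3 TPM, and covered it entirely.

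The 5 binding proteins summed to 265 to 352 TPM in sedentary libraries and to 196 to 284 TPM in running ones. Igfbp5 made up 64.5 ± 8.37% of this sum in p16 WT CTL, and 57.1 ± 9.55% in p16 KO CTL, against 50.1 ± 13.7% in p16 WT RUN, and it made up 50.6 ± 7.03% in p16 KO RUN (mean ± SD, n = 4). These shares are a description and were not tested.

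Read over the 10 genes, the counts of those under the study's threshold stood as follows. In Set A 3 of 10 passed (Igfbp7 higher, Igfbp4 and Igfbp5 lower), against 18.5% of all tested genes. In Set B 1 of 10 passed (Igfbp2 higher), against 6.69% of all genes, and in Set C 1 of 10 (Igfbp5 lower), against 4.81%. In Set D 1 of 10 passed (Igfbp5 lower), against 8.63%, and Igfbp5 was the single gene of the 10 whose libraries did not overlap between the groups, against 5.56% of all genes. In Set E none passed, against 3.87%, with log2 fold changes between -0.15 and 0.18. For running averaged over genotypes 3 of 10 passed (Igf2r and Igfbp7 higher, Igfbp5 lower), against 17.9%, and for genotype averaged over sedentary and running mice 1 of 10 (Igfbp2 higher), against 7.12%. In the interaction none passed, against 5.48%. With 10 genes a single gene makes 10% of the list, so nothing more is read from these shares.

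The counts turned on single libraries. Set A had 5 genes without replicate 5, 1 without replicate 13 and 2 without replicate 6, 7, 14, 15 or 16, and it stayed at 3 without replicate 8. Over 15 alternatives, which include the fit without replicate 8, it was 2 in 7 and 3 in the other 8. Set B had 3 without replicate 2 and 2 without replicate 5. Set C had 0 without replicate 1, 3, 10 or 12, and 2 without replicate 2, 4 or 11. Set D had 2 without replicate 2, 4 or 15, and Set E had 1, Igfbp4, without replicate 14. The interaction had 2 without replicate 5 (Igfbp4 and Insr) and 1 without replicate 2, 6, 8, 13 or 14 (Igfbp4 or Igfbp2). The genotype average had 0 without replicate 1, 3, 6, 7, 9, 11, 13 or 14, and 3 without replicate 2 or 5 (Igfbp2, Igf1r and Insr). Without the 3 libraries low in nuclear RNA the genes passing in the running average were Igf2 and Igfbp5. By limma with all libraries no gene of the 10 had an adjusted p under 0.05 in any comparison, the smallest being 0.110 for Igfbp5 in the running average. Of all genes, 0.751% had an adjusted p under 0.05 in the running average, 0.0173% in Set A and 0.00577% in Set E. The median of the absolute log2 fold changes was 0.29 over the 10 genes and 0.16 over all genes in Set A, 0.20 and 0.09 in Set C, 0.16 and 0.14 in Set B, 0.14 and 0.10 in Set D, and 0.07 and 0.07 in Set E. In the running average it was 0.103 over the 10 genes and 0.108 over all genes.

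**Figure D3:**
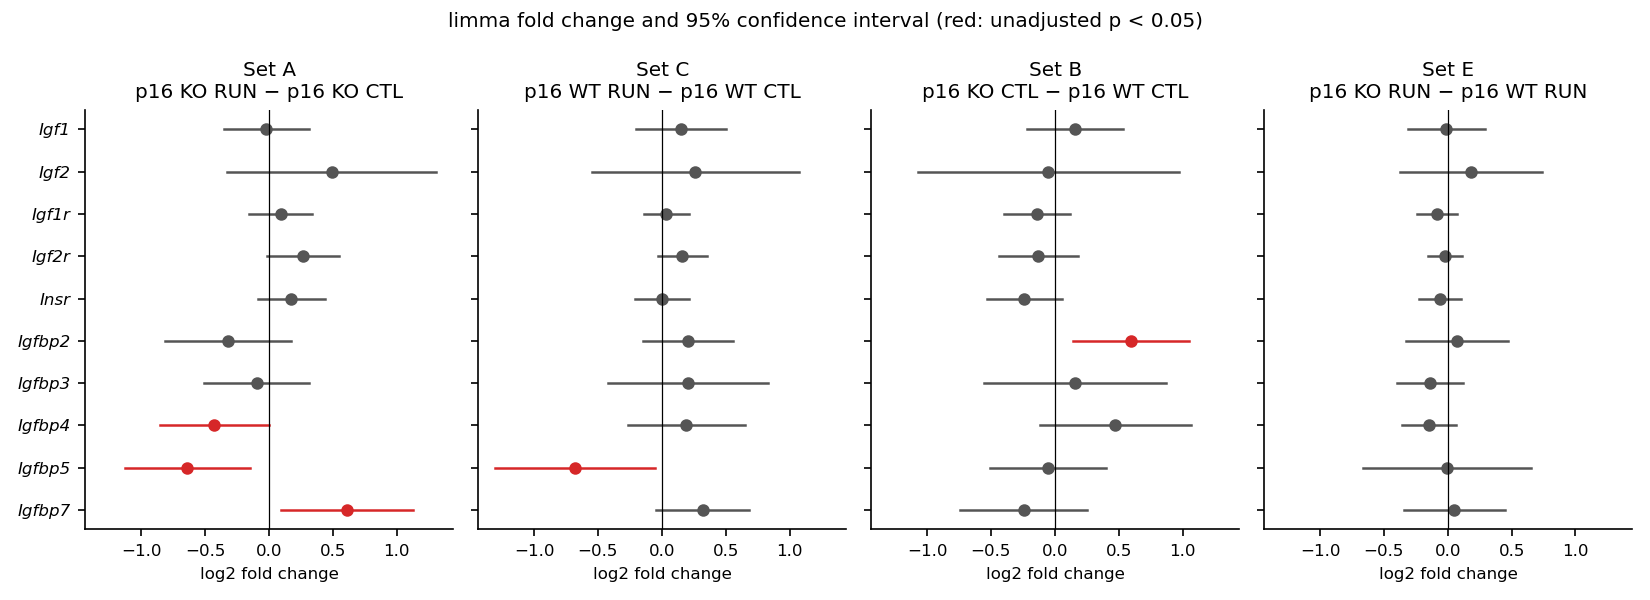
log2 fold change of each gene (point) with its 95% confidence interval from limma (line) in Sets A, C, B and E, 4 libraries against 4 in each, with red for an unadjusted p under 0.05. Igfbp5 lies to the left of 0 in Sets A and C, Igfbp7 to the right, and in Set E no interval excludes 0.

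Pappa encodes pappalysin-1, the secreted protease that cuts IGFBP4 and IGFBP5 and so releases bound IGF. Of the 65 other IGF and insulin pathway genes tested, it was the one with an adjusted p under 0.05, in the running average. Its level was low, at 0.594, 0.674, 0.998 and 0.655 TPM in p16 WT CTL, 0.753, 0.488, 0.728 and 0.361 TPM in p16 KO CTL, 0.932, 1.13, 1.16 and 1.43 TPM in p16 WT RUN, and 1.12, 1.50, 1.53 and 1.65 TPM in p16 KO RUN. All p16 KO RUN libraries were above all p16 KO CTL libraries, and the p16 WT RUN libraries were above 3 of the 4 p16 WT CTL libraries. Pappa was named for its small p in Set A, where the share of all genes without overlap was not counted. That share was counted in Set D alone, at 5.56%. The log2 fold change, on the scale with 0.1 TPM added, was 1.16 ± 0.27 in Set A (limma p = 0.00185, adjusted p = 0.147, exact two-sided permutation p = 0.0286, the smallest that 4 against 4 allows) and 0.60 ± 0.24 in Set C (limma p = 0.0307, adjusted p = 0.985). The average over genotypes was 1.84-fold, or 0.88 ± 0.17 on the log2 scale (adjusted p = 0.0278, past the threshold), and from 0.79 to 0.95 when each library was left out. With 1 TPM added in place of 0.1 TPM, which shrinks the fold change of a gene at this level, the values were 0.61 in Set A, 0.32 in Set C and 0.46 on average, each past the threshold. Without the 3 libraries low in nuclear RNA the average was 0.94 (past the threshold) and Set A 1.28 (past the threshold). Without all 4 they were 0.73 and 0.86, with replicate 5 (0.753 TPM) as the only p16 KO CTL library, so only the sizes are given. The running effects of the genotypes differed by 0.56 ± 0.34 (adjusted p = 0.797, short of the threshold). Set C did not keep the threshold with the choroid plexus or nuclear RNA markers as a covariate, nor without replicate 1, 4, 10, 11 or 12, with values from 0.50 to 0.73. On average over genotypes Pappa RNA was higher and Igfbp5 RNA lower in running mice. Igfbp4 RNA, at -0.12 ± 0.15 in the same average, was short of the threshold. The proteins and their cutting were not measured.

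Igfbp6, which prefers IGF-II, was measured at 13.2, 12.1, 21.9 and 15.3 TPM in p16 WT CTL, 19.0, 16.6, 29.8 and 15.8 TPM in p16 KO CTL, 18.0, 39.4, 17.2 and 30.4 TPM in p16 WT RUN, and 26.6, 36.9, 23.0 and 36.1 TPM in p16 KO RUN. Its log2 fold change was 0.54 ± 0.24 in Set A (adjusted p = 0.266, past the threshold), 0.68 ± 0.29 in Set C (adjusted p = 0.985, past the threshold) and 0.61 ± 0.20 on average (adjusted p = 0.148, past the threshold). Replicates 10 and 12 of p16 WT RUN, the libraries low in Igfbp5, had 39.4 and 30.4 TPM of Igfbp6, against 18.0 and 17.2 TPM in replicates 9 and 11. Set A did not keep the threshold without replicate 5, 6, 8, 13, 14 or 16, with values from 0.43 to 0.76. Set C did not keep the threshold without replicate 1, 2, 4, 10 or 12, with values from 0.45 to 0.86. The Set A value was 0.77 without the 3 libraries low in nuclear RNA (past the threshold), with the nuclear RNA covariate it was 0.82 (past the threshold), and without all 4 it was 0.67 (short of the threshold). The average over genotypes was 0.68 (past the threshold) without the 3 and 0.63 without the 4.

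**Figure D4:**
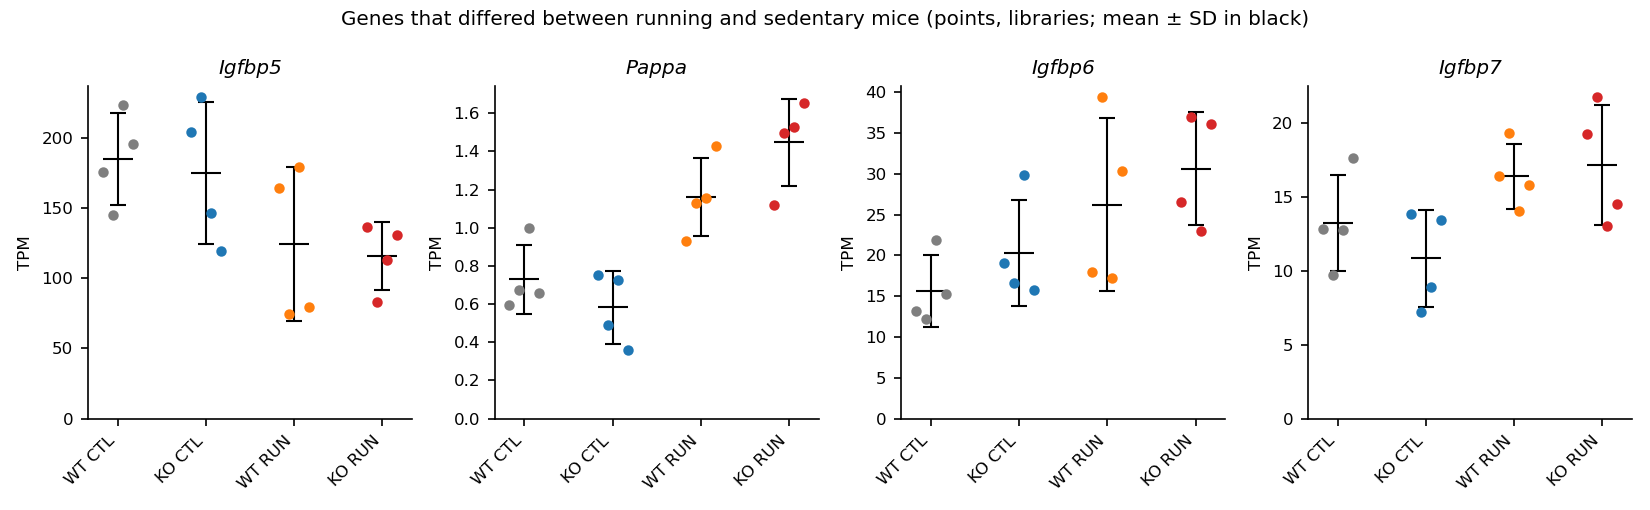
Levels in TPM (vertical axes, from 0) of Igfbp5, Pappa, Igfbp6 and Igfbp7 by group, with 1 point per library and the mean ± SD of 4 libraries in black. Pappa is at 0.93 to 1.65 TPM in running libraries and at 0.36 to 1.00 TPM in sedentary ones, while Igfbp5 is lowest in running libraries.

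The other genes were read in 5 lists. Of the 9 tested ligands, binding proteins and proteases, 3 were higher in Set A (Igfbp6, Pappa and the RNA-binding Igf2bp3) and none lower, and 2 were higher in Set C. The median log2 fold change of this list was 0.37 in Set A, 0.12 in Set C, -0.28 in Set B and -0.12 in Set D, against 0.02, 0.0039, -0.011 and 0.0038 over all genes. Of 10 tested proteins with an IGFBP domain, secreted or, as Crim1, in the membrane, 2 were higher in Set A (Igfbpl1 and Wisp1) and 1 lower (Crim1), and in Set E 1 was higher and 2 lower. Of 13 tested adaptors and docking proteins, which couple the receptors to downstream kinases, 4 were higher in Set A (Irs2, Shc1, Shc2 and Sh2b1) and none lower, and none passed in Set C. Of 28 genes of the PI3K, AKT, TOR and FOXO pathway, 2 were higher and 2 lower in Set A and none passed in Set C. Of 5 genes of the growth hormone axis none passed in Sets A, C and E and 1 was higher in Set B. In all, 14 of 65 passed in Set A, or 21.5%, 7 of 65 in Set B, or 10.8%, 3 of 65 in Set C and 3 of 65 in Set E, or 4.62% each, and 13 of 65 in the running average, or 20.0%. The shares of all genes were 18.5%, 6.69%, 4.81%, 3.87% and 17.9% in that order. None of the 65 had an adjusted p under 0.05 in any of the 5 sets by limma.

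Igfbpl1, a small relative of the binding proteins, was measured at 0.352, 0.659, 2.07 and 0.351 TPM in p16 WT CTL, 0.390, 0.766, 0.581 and 0.643 TPM in p16 KO CTL, 0.714, 0.339, 0.325 and 1.70 TPM in p16 WT RUN, and 0.890, 2.15, 1.54 and 2.60 TPM in p16 KO RUN. The p16 KO CTL and p16 KO RUN libraries did not overlap, while replicate 3 of p16 WT CTL and replicate 12 of p16 WT RUN reached into the range of p16 KO RUN. Igfbpl1 was named for its small p in Set A, where the share of all genes without overlap was not counted. Its log2 fold change was 1.32 ± 0.35 in Set A (adjusted p = 0.165, past the threshold) and 1.30 ± 0.50 in Set E (adjusted p = 1.00, past the threshold), the latter lost without replicate 10, 11, 14 or 16, with values from 1.04 to 1.74. With 1 TPM added in place of 0.1 TPM these values were 0.75 (past the threshold) and 0.68 (past the threshold). In Set A it was 1.54 without the 3 libraries low in nuclear RNA (past the threshold). Without all 4 it was 1.86, with replicate 5 (0.390 TPM) as the only p16 KO CTL library, so only its size is given. Of 6 newborn neuron and progenitor markers, 1 was higher and none lower in Set A, and likewise in Set E, at an unadjusted p under 0.05. The shares of all genes were 18.5% and 3.87%. The sum of these markers was 23.8 to 34.1 TPM in p16 KO CTL, 27.9 to 33.6 TPM in p16 WT RUN and 29.9 to 46.2 TPM in p16 KO RUN. The 46.2 TPM was in replicate 14, where the marker Tac2 gave 19.9 TPM, against 1.52 to 5.48 TPM in all other libraries. The other p16 KO RUN libraries had sums of 29.9 to 33.6 TPM. The part of these markers in the Igfbpl1 difference was not tested. Shc2, an adaptor, was at 34.3 ± 6.02 TPM in p16 KO CTL and 46.8 ± 2.37 TPM in p16 KO RUN (SD, n = 4), a log2 fold change of 0.39 ± 0.0947 (adjusted p = 0.157, past the threshold). Its 3 lowest values, 32.5, 30.1 and 28.4 TPM, were in replicates 2, 6 and 7, those low in nuclear RNA. Without these 3 libraries the value was 0.23 (past the threshold). Without all 4 that stood apart it was 0.21, with replicate 5 (40.8 TPM) as the only p16 KO CTL library, so only its size is given. Htra3, a secreted serine protease with an IGFBP domain, was at 2.42, 2.30, 2.80 and 2.42 TPM in p16 WT CTL and at 3.48, 4.19, 3.52 and 3.25 TPM in p16 KO CTL, all of the latter being higher. Htra3 was named for its small p in Set B, where the share of all genes without overlap was not counted either. Its log2 fold change was 0.58 ± 0.15 in Set B (adjusted p = 0.625, past the threshold) and 0.36 ± 0.14 in Set C (adjusted p = 0.985, past the threshold), the latter lost without replicate 1, 2, 4, 10 or 11, with values from 0.29 to 0.41. The Set C call was also lost in 4 of 14 alternatives, over which the values ran from 0.28 to 0.37. The Set B value was 0.43 without the 3 libraries low in nuclear RNA (short of the threshold) and 0.45 without all 4 that stood apart (short of the threshold).

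Inppl1, which encodes the lipid phosphatase SHIP2, was higher in Set B by 0.20 ± 0.0723 (adjusted p = 0.625, past the threshold), which was lost without replicate 4 or 7, with values from 0.17 to 0.23, and was 0.12 without the 4 libraries that stood apart (short of the threshold). Crim1, a membrane protein with an IGFBP domain, was higher in Set B by 0.25 ± 0.0976 (adjusted p = 0.625, past the threshold) and lower in Set E, at -0.24 ± 0.0937 (adjusted p = 1.00, past the threshold). Both Crim1 calls were lost in 4 of 8 fits that left out 1 library (replicates 2, 4, 7 and 8 in Set B and 9, 10, 15 and 16 in Set E), with values from 0.17 to 0.31 and from -0.31 to -0.17, and the Set B value was 0.32 (short of the threshold) without the 3 libraries and 0.14 (short of the threshold) without the 4. Nov, a CCN protein that is also a CA1 marker, was lower in Set E, at -0.79 ± 0.27 (adjusted p = 1.00, past the threshold). It was at 4.39 to 9.80 TPM in p16 WT RUN and 3.07 to 5.05 TPM in p16 KO RUN, which overlapped. Replicate 8 of p16 KO CTL, which is not part of Set E, held 33.5 TPM. Wisp1, another CCN protein, was higher in running mice on average, by 0.81 ± 0.22 (adjusted p = 0.0900, past the threshold), at group means of 0.649 ± 0.127 TPM in p16 WT CTL, 0.357 ± 0.116 TPM in p16 KO CTL, 0.960 ± 0.346 TPM in p16 WT RUN and 0.993 ± 0.376 TPM in p16 KO RUN (SD, n = 4). With 1 TPM added the Wisp1 value was 0.38 (past the threshold), and it was 0.79 (past the threshold) without the 3 libraries and 0.83 without the 4. Sh2b1, an adaptor of the insulin receptor, was higher by 0.12 ± 0.0366 (adjusted p = 0.116, past the threshold).

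The genes whose log2 levels followed each of the 10 most closely over the 16 libraries, among genes averaging 1 TPM or more, were named with their Pearson r, as a description over libraries that differ in depth, composition and RNA quality, which all genes of a library have in common. For Igfbp5 they were Jph4 (0.97), Tef (0.96) and Dcaf6 (0.96), of which Jph4 is a junctophilin of neurons and Tef a transcription factor of the circadian clock output. For Igfbp7 they were Fn1 (0.95), Pglyrp1 (0.91) and Mrs2 (0.91), with Fn1 the matrix protein fibronectin. For Igfbp4 they were Ankrd63 (0.95), Gabra3 (0.93) and Galntl6 (0.93), for Igfbp3 Cpne2 (0.95), Bace2 (0.94) and Etv1 (0.94), and for Igfbp2 Slc9a3r1 (0.86), Rrbp1 (0.86) and Tnfrsf1a (0.86). For Igf2 they were Bcl10 (0.80), Ptgds (0.76) and Slc13a4 (0.75), of which Ptgds and Slc13a4 are known from meninges and choroid plexus. For Igf1r they were Cstf2 (0.95), 5830417I10Rik (0.95) and Atp11a (0.94), for Igf2r Klhdc10 (0.96), Crebbp (0.94) and Lrig2 (0.94), and for Insr Zfp26 (0.97), Gm17296 (0.96) and Kmt2c (0.95). For Igf1 they were Gfod2 (0.83), Gmppb (0.82) and Glrx5 (0.82).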

How the data were processed

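RNA of the dentate gyrus was sequenced in 16 libraries, 4 per group, each of 2 pooled male mice. Per the labels and methods, libraries were made with the Universal Plus mRNA-Seq kit, demultiplexed with bcl2fastq 2.20, trimmed with Cutadapt 1.11 and ERNE, and aligned with STAR to mm10. The authors then estimated gene abundances with StringTie. The deposited tables hold per gene a coverage, an FPKM and a TPM value, the TPM being used here and the FPKM as an alternative. The authors ran their own differential test on HTSeq counts with DESeq2; no count table was used here, so depth is given only as coverage relative to the mean library, which is not an absolute read number.

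Entries that share a gene name were added up, and TPM were divided by median ratio scaling factors (0.920 to 1.03) over 13226 genes that reached 1 TPM in each library. The 17317 genes averaging 0.1 TPM or more were tested, as log2(TPM + 0.1), with limma 3.58.1 in R 4.3.3 (variance trend, 8 libraries per set, 16 for the interaction and averages). The 10 IGF genes all passed this filter. P-values were Benjamini-Hochberg adjusted over all tested genes. The threshold of the study, an unadjusted p under 0.05, was kept. Exact permutation tests over the 35 splits of 4 against 4 libraries were two-sided and run for single genes, with a smallest p of 0.0286. The test was checked on simulated data in which each gene varied independently, where 4.66% to 5.15% of unchanged genes passed the threshold. Effects shared by many genes of a library were not simulated, so the check does not cover them.

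The members and gene lists were chosen with earlier results of these data known. Named genes were the 10 members, the 3 genes of smallest p under 0.05 of the other pathway lists in Sets A, B, C, E and the running average, and for each member the 3 genes of highest Pearson r. Other pathway genes named in the list counts were chosen after their values were seen. Sequences and coordinates are from RefSeq and GENCODE on GRCm38, where 9 of the 10 genes had a promoter entry. Alternatives changed the filter, pseudocount (0.01 or 1 TPM), scaling, unit, variance model, libraries per fit, handling of repeated gene names, and covariates (choroid plexus or nuclear RNA markers), and left out each library. Leaving out the 3 or 4 libraries that stood apart was added after seeing the data.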

Additional observations from a re-analysis of the deposited data

Results flagged for a closer look

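Of the 40 sets of 4 libraries (10 genes in 4 groups), 2 held a library far from the other 3 by Dixon's ratio, of which chance gives about 1 in 20. Insr in replicate 2 of p16 WT CTL was at 18.3 TPM, against 24.2 to 24.7 TPM in the other 3 (ratio of the gap to the range 0.929). This library was also low in nuclear RNA markers. Igfbp4 in replicate 8 of p16 KO CTL was at 74.9 TPM, against 38.6 to 43.4 TPM in the other 3 (ratio 0.867). This library had the highest CA1 pyramidal markers (246 TPM) and the lowest granule neuron markers (536 TPM) of all 16. The part of tissue composition in either value was not tested.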

How the results depend on the processing

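Of 548 recomputed values of 39 reported log2 fold changes, 463 kept their direction and their side of the threshold, 61 lost the threshold, 15 gained it and 9 changed sign. These alternatives include the fits without replicate 8 alone, without the 3 libraries low in nuclear RNA and without all 4, and in Sets C and D the last 2 are one fit, without replicate 2. Without all 4, p16 KO CTL is replicate 5 alone, so calls of that fit take their spread from the other libraries. The 9 were the Igfbp5 interaction (-0.0036 with the choroid plexus covariate, -0.13 without replicate 8, -0.069 without the 4 libraries that stood apart) and the running averages of Igf1r (-0.046 with the nuclear RNA covariate, -0.052 without the 3 libraries low in nuclear RNA, -0.093 without the 4) and Insr (-0.011, -0.027 and -0.11 in the same fits). None of them passed the threshold in any of these fits, and the cause was not tested. Calls of single genes were also lost for Igfbp6 in Sets A and C, Igfbp5 in Set C and Crim1 in Sets B and E (no variance trend among others), Inppl1 in Set B (TPM as deposited among others), Igfbpl1 in Set E (no filter and the choroid plexus covariate), Nov in Set E (the 16 libraries in one fit) and Sh2b1 in the running average (without the 4). The same held for Igfbp7 in Set A and the running average, Igfbp5 in Set A and Htra3 in Sets B and C. With single libraries left out, the Igfbp5 interaction ran from -0.16 to 0.25, Igfbp4 in Set C from -0.0033 to 0.37 and Igf2 in Set C from -0.030 to 0.59.

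The count of the 10 genes past the threshold moved as follows over the same alternatives. In Set A it was 2 to 3 and in the running average 2 to 4, both 3 in the fit reported. In Set B it was 3 when the 16 libraries shared one fit, 2 without the 3 libraries and 0 without the 4. In Set C it was 0 with no filter, with no variance trend and with the nuclear RNA covariate, and 2 without replicate 2. In Set D it was 2 with the nuclear RNA covariate and without replicate 2. In the interaction it was 1 without the 3 libraries, without replicate 8 and without the 4. In the genotype average it was 0 with the choroid plexus covariate, with the nuclear RNA covariate and without the 4. With single libraries left out it was 1 to 5 in Set A, 1 to 3 in Set B, 0 to 2 in Set C, 1 to 2 in Set D, 0 to 1 in Set E, 0 to 2 in the interaction, 3 to 4 in the running average and 0 to 3 in the genotype average. No paired analysis was possible because the replicate numbers run from 1 to 16 and no number occurs in more than 1 group. Read counts were not used, so counting error could not be set apart from the spread between libraries.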

Other observations

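The ratio of Igf2 to Igf1 TPM, which was in none of the comparisons, ran from 2.03 to 6.03 in p16 WT CTL, from 2.28 to 6.41 in p16 KO CTL, from 2.49 to 5.85 in p16 WT RUN and from 3.31 to 6.34 in p16 KO RUN. Igf2 was thus the more abundant ligand transcript in all 16 libraries.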
